A study of Mus musculus with 12 samples.

Results

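The mRNAs of 10 nucleolar ribosome biogenesis factors (Fbl, Ncl, Nop56, Nop58, Dkc1, Nolc1, Bop1, Pes1, Wdr12 and Eif6) were followed in 6 RNA-seq libraries of mouse cortex, each made from 1 numbered mouse. The factors were taken by name from 55180 annotated genes, and all 10 were among the 15013 genes detected, meaning an expected count of at least 10 in every library. The study compared 3 Larp1 WT mice (Nestin-Cre) with 3 Larp1 cKO mice (Nestin-Cre;Larp1-flox/flox), all male C57BL/6J animals, and used rRNA-depleted total RNA from posterior cortex. Both genotypes carry Nestin-Cre, which is driven by the Nestin promoter and acts in the progenitors of neurons and of some glia, and cells of other origin, such as microglia, are not targeted. Neither the age of these mice nor the genotype behind each mouse number is stated in the material read here. Values are therefore given for each mouse, or as the range and median of the 6, and no comparison of genotypes was made.

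Larp1 is an RNA-binding protein that recognizes TOP mRNAs, which begin with a C followed by a run of pyrimidines and which include the ribosomal protein mRNAs. The 10 factors act in the assembly of ribosomes, of which the ribosomal proteins are a part. In the nucleolus, box C/D and box H/ACA small nucleolar ribonucleoproteins (snoRNPs) modify the precursor of ribosomal RNA, and assembly complexes such as PeBoW (Pes1, Bop1 and Wdr12) turn it into pre-ribosomal subunits, on which ribosomal proteins are placed. Since both gene sets serve the production of ribosomes, the question asked of these libraries was whether the mRNAs of the factors followed the ribosomal protein mRNAs from mouse to mouse.

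They did not show the same spread. The 79 ribosomal protein mRNAs summed to 15038 TPM in mouse 678, 13830 in mouse 687, 6381 in mouse 688, 6709 in mouse 698, 13156 in mouse 700 and 7570 in mouse 703, where TPM is a length-scaled share of all RNA in a library. The 10 factors summed to 159 TPM in mouse 678, 132 in mouse 687, 138 in mouse 688, 136 in mouse 698, 129 in mouse 700 and 163 in mouse 703. The highest library exceeded the lowest by 2.36 times for the ribosomal proteins and by 1.26 times for the factors. None of the 10 factors was among the most variable genes, against 78 of the 79 ribosomal protein genes and 5.0% of all detected genes.

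The first bases of the mRNAs are shown because the TOP motif is read at the start of an mRNA. For each factor they are the first 20 bases, 5′ to 3′, of the annotated isoform with the highest median TPM, read from the GENCODE M21 transcripts (GRCm38) and written as DNA, and capitals mark a +1 C followed by at least 4 pyrimidines.
Fbl-201, chromosome 7, plus strand, from position 28169710: gtcaccgcgcgcaggcgctc
Nop56-202, chromosome 2, plus strand, from position 130274430: agagcgcgctagccgcattg
Nop58-201, chromosome 1, plus strand, from position 59684977: gaaggagactcgcatatttg
Dkc1-201, chromosome X, plus strand, from position 75095854: ggtcacacctccgtggccga
Nolc1-203, chromosome 19, plus strand, from position 46075970: gctttggtgttcttaagtcg
Ncl-202, chromosome 1, minus strand, from position 86359364: agacgctagctgtagctggc
Ncl-201, chromosome 1, minus strand, from position 86359400: agaggcgattactgggcagg
Pes1-201, chromosome 11, plus strand, from position 3963975: ggcacgtgcgggaggaagta
Bop1-201, chromosome 15, minus strand, from position 76477277: acgaggcgctcccgctgccg
Wdr12-202, chromosome 1, minus strand, from position 60098645: ggcagcctgccttctcccgg
Eif6-201, chromosome 2, minus strand, from position 155826925: ctcatcttttcatttgccca
Ncl is shown with 2 isoforms, since Ncl-202, its leading isoform, is annotated as a retained intron and Ncl-201 is its leading protein-coding isoform. For contrast, the TOP start of Rps21, the ribosomal protein gene with the highest median TPM among those with one, and the only TOP start annotated for a protein-coding isoform of a factor are as follows.
Rps21-201, chromosome 2, plus strand, from position 180257377: CCCTCCTgcccaatagtgct
Nolc1-201, chromosome 19, plus strand, from position 46075863: CTCTCCTCCCgggtggaggg

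At these annotated starts, 0 of the 10 factors had a TOP start, against 9 of the 79 ribosomal proteins and 2.35% of the 13625 detected protein-coding genes. The only leading isoform of a factor that opens with C is Eif6-201, in which 2 pyrimidines follow before an A interrupts the run. Rps21-201 has 6 pyrimidines after its +1 C. Counting any annotated protein-coding isoform, Nolc1 was the only factor with a TOP start, against 23 of the 79 ribosomal proteins and 5.97% of detected protein-coding genes. That isoform, Nolc1-201, had a median of 0.075 TPM, against 7.14 TPM for Nolc1-203, which starts downstream of it. With at least 6 pyrimidines the count was 0 of 10 factors (1.18% of detected protein-coding genes), and with the motif beginning within 5 bases of the annotated start it was also 0 (9.16%). With only 10 factors, none of these counts can be told from the share over all detected protein-coding genes. Since most ribosomal protein mRNAs lack the motif at their annotated start as well, the annotation is a weak guide to the start sites used in cortex, which were not measured here. The study scored TOP motifs from start sites mapped in neonatal mouse cortex, and those scores were not used here.

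Among the factors, Ncl had the highest level in every library and Wdr12 the lowest, as the plot of TPM by gene shows. The order by median was Ncl (38.1 TPM), Nop56 (17.3), Eif6 (14.2), Nolc1 (13.7), Fbl (12.5), Nop58 (11.9), Bop1 (11.7), Pes1 (8.21), Dkc1 (7.56) and Wdr12 (4.86). The ranges of neighbours did not overlap for Ncl above Nop56, Nop56 above Eif6, Bop1 above Pes1 and Dkc1 above Wdr12. From Eif6 to Bop1 the ranges of neighbours overlapped: Eif6 exceeded Nolc1 in 3 of the 6 libraries, Fbl exceeded Nop58 in 3, and Nop58 exceeded Bop1 in 2. Nolc1 exceeded Fbl, and Pes1 exceeded Dkc1, in all 6.

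**Figure D1:**
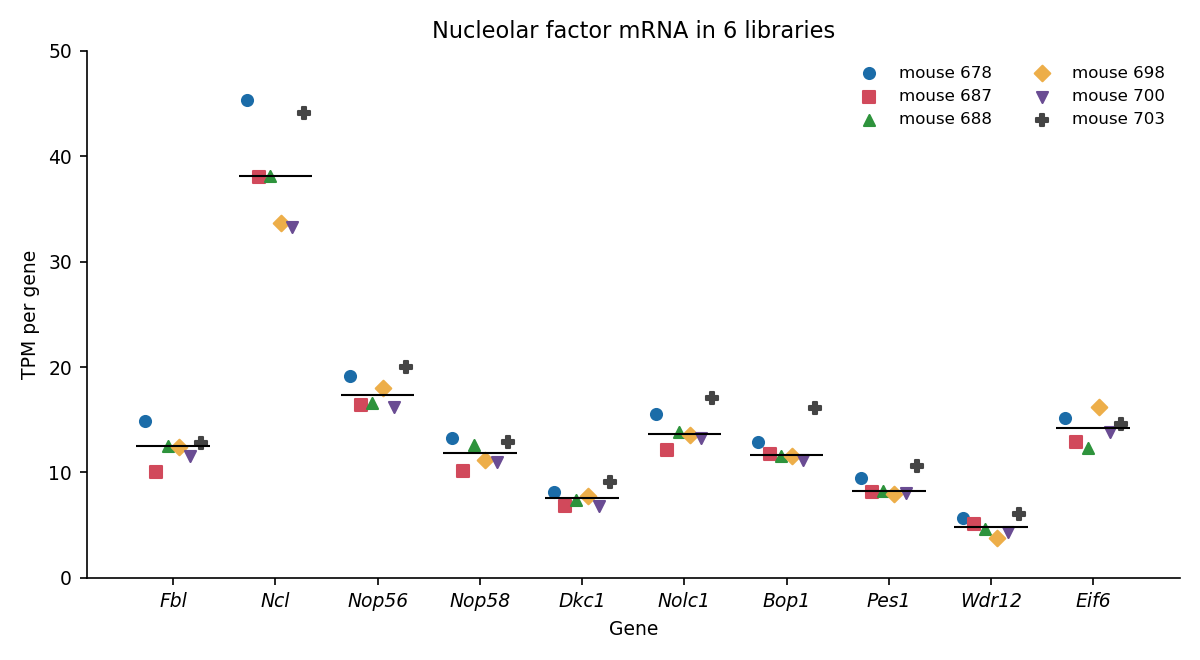
TPM per gene (y axis, linear, from 0) for each of the 10 factors (x axis), with 1 symbol per mouse and a line at the median of the 6 libraries. Ncl lies between 33.3 and 45.3 TPM in all libraries, above every other factor, and mouse 703 or mouse 678 is the highest library for 9 of the 10 factors.

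TPM itself was shifted between libraries. Nuclear protein-coding genes held 22.7% to 28.8% of TPM, and the median detected protein-coding gene lay 0.15 higher in mouse 703 and 0.13 lower in mouse 700 than its own median over the 6 libraries, on the log2 scale. In TPM, mouse 703 was the highest library for 6 of the 10 factors (Nop56, Dkc1, Nolc1, Bop1, Pes1 and Wdr12) and mouse 700 the lowest for 4 (Ncl, Nop56, Dkc1 and Bop1). Levels were therefore also read as rescaled TPM, meaning TPM scaled to 1 common total over nuclear protein-coding genes in each library. That total includes the ribosomal protein mRNAs. After rescaling, the same median shift was -0.02 in mouse 678, -0.01 in mouse 687 and -0.02 in mouse 700. It was 0.03 in mouse 688, 0.02 in mouse 698 and 0.01 in mouse 703. In rescaled TPM, mouse 678 was highest for 5 factors (Fbl, Ncl, Nop56, Nolc1 and Wdr12) and mouse 703 for 3 (Dkc1, Bop1 and Pes1). Mouse 687 was lowest for 5 (Fbl, Nop56, Nop58, Dkc1 and Nolc1) and mouse 698 for 4 (Ncl, Bop1, Pes1 and Wdr12). In bulk tissue, fewer cells that express a gene and less of its RNA per cell cannot be told apart.

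Box C/D snoRNPs place 2′-O-methyl groups on ribosomal RNA, guided by their small nucleolar RNA. Fbl (chromosome 7, 28169710 to 28179269, plus strand) encodes fibrillarin, the methyltransferase. It was at 14.9 TPM in mouse 678, 10.1 in mouse 687, 12.5 in mouse 688, 12.4 in mouse 698, 11.6 in mouse 700 and 12.8 in mouse 703. The highest library exceeded the lowest by 1.48 times in TPM (95% interval 1.31 to 1.67, exact binomial on the counts of those libraries, counting error only) and by 1.39 times in rescaled TPM. Mouse 687, with the second highest ribosomal protein sum in TPM, had the lowest Fbl level on both scales. Of the 51-base stretches of Fbl-201, 67.0% also occur in Gm5812, a processed pseudogene listed at 0.35 to 0.71 TPM, so that the division of reads between the copies is uncertain.

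Nop56 (chromosome 2, 130274430 to 130279313, plus strand) encodes a core protein of the box C/D particle. It was at 19.2 TPM in mouse 678, 16.4 in mouse 687, 16.6 in mouse 688, 18.03 in mouse 698, 16.2 in mouse 700 and 20.03 in mouse 703. In rescaled TPM it was the steadiest of the 10, with the highest library 1.10 times the lowest. Nop58 (chromosome 1, 59684971 to 59719044, plus strand), the partner of Nop56 in the same particle, was at 13.2 TPM in mouse 678, 10.2 in mouse 687, 12.6 in mouse 688, 11.2 in mouse 698, 10.95 in mouse 700 and 12.9 in mouse 703. Its highest and lowest libraries in rescaled TPM, mouse 688 and mouse 687, differed by 1.25 times, and they stand in the opposite order in the ribosomal protein sum. The level of Nop56 was 1.32 to 1.62 times that of Nop58 within a library, and that of Fbl 0.99 to 1.12 times.

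Dkc1 (chromosome X, 75095854 to 75109777, plus strand) encodes dyskerin, the pseudouridine synthase of box H/ACA snoRNPs. It was at 8.15 TPM in mouse 678, 6.85 in mouse 687, 7.40 in mouse 688, 7.72 in mouse 698, 6.80 in mouse 700 and 9.06 in mouse 703. The ratio of highest to lowest library was 1.33 in TPM and 1.13 in rescaled TPM, where 5 of the 6 libraries lay between 29.99 and 31.4 and mouse 687 at 27.9. Nolc1 (chromosome 19, 46075863 to 46085530, plus strand), which encodes a phosphoprotein that chaperones snoRNPs, was at 15.6 TPM in mouse 678, 12.2 in mouse 687, 13.8 in mouse 688, 13.5 in mouse 698, 13.3 in mouse 700 and 17.1 in mouse 703. Its ratio was 1.41 in TPM and 1.21 in rescaled TPM, and mouse 687 was again the lowest on both scales.

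Ncl (chromosome 1, 86344719 to 86359400, minus strand) encodes nucleolin, an abundant nucleolar RNA-binding protein with roles in rRNA transcription and processing. It was at 45.3 TPM in mouse 678, 38.1 in mouse 687, 38.1 in mouse 688, 33.6 in mouse 698, 33.3 in mouse 700 and 44.1 in mouse 703. Mice 687 and 688, which had the same Ncl level to 3 digits, had ribosomal protein sums of 13830 and 6381 TPM. The ratio of highest to lowest library for Ncl was 1.36 in TPM (95% interval 1.31 to 1.41, as above) and 1.32 in rescaled TPM. In TMM-scaled CPM, a count relative to library size that is not divided by isoform length, Ncl was at 163 in mouse 678, 147 in mouse 687, 141 in mouse 688, 125 in mouse 698, 148 in mouse 700 and 142 in mouse 703. On that scale its 3 highest libraries were those of the ribosomal protein sum, mice 678, 687 and 700, with a gap of 147 to 142 to the next.

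The PeBoW complex acts in the maturation of the large ribosomal subunit. Pes1 (chromosome 11, 3963975 to 3980004, plus strand), which encodes pescadillo, was at 9.46 TPM in mouse 678, 8.14 in mouse 687, 8.28 in mouse 688, 7.95 in mouse 698, 8.07 in mouse 700 and 10.6 in mouse 703. Bop1 (chromosome 15, 76452989 to 76477277, minus strand), which encodes the subunit that bridges the others, was at 12.9 TPM in mouse 678, 11.8 in mouse 687, 11.5 in mouse 688, 11.6 in mouse 698, 11.2 in mouse 700 and 16.2 in mouse 703. Wdr12 (chromosome 1, 60069785 to 60098645, minus strand), a WD-repeat subunit, was at 5.63 TPM in mouse 678, 5.10 in mouse 687, 4.61 in mouse 688, 3.81 in mouse 698, 4.33 in mouse 700 and 6.07 in mouse 703. Mouse 703 was the highest library for all 3 subunits in TPM, followed by mouse 678. Within a library, the subunits stood at 1.36 to 1.52 Bop1 per Pes1 and 0.48 to 0.63 Wdr12 per Pes1, in TPM. Wdr12 had the widest ratio of the 10 factors, 1.59 in TPM (95% interval 1.42 to 1.79) and 1.45 in rescaled TPM, where mouse 698 lay at 14.9 and the other 5 libraries between 18.9 and 21.6. Without mouse 698 its ratio in TPM was 1.40. In TPM, Bop1 had a ratio of 1.45 with mouse 703 and 1.15 without it.

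Eif6 (chromosome 2, 155819832 to 155826925, minus strand) encodes the factor that binds the pre-60S particle and keeps it from joining the small subunit too early. It was at 15.1 TPM in mouse 678, 12.9 in mouse 687, 12.3 in mouse 688, 16.2 in mouse 698, 13.8 in mouse 700 and 14.6 in mouse 703. Mouse 698, low in ribosomal protein mRNA and lowest for 4 other factors in rescaled TPM, was the highest for Eif6 on both scales. In rescaled TPM, Eif6 was at 63.3 in mouse 698, 60.8 in mouse 700 and 58.0 in mouse 678, and at 50.4 to 52.3 in the other 3 libraries. The summed mRNA of 5 oligodendrocyte markers (Mbp, Mog, Mobp, Mag and Cnp) was also higher in mice 678, 698 and 700 than in the other 3, at 1821 to 1989 against 1120 to 1385 in rescaled TPM. Its part in the Eif6 levels was not tested.

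Set beside the ribosomal proteins, the factors moved over a far smaller range. In rescaled TPM and relative to the median of the 6 libraries, on the log2 scale, the ribosomal protein sum stood at 0.48 in mouse 678, 0.45 in mouse 687, -0.66 in mouse 688, -0.65 in mouse 698, 0.49 in mouse 700 and -0.65 in mouse 703. The sum of the 10 factors stood at 0.11 in mouse 678, -0.08 in mouse 687, -0.003 in mouse 688, -0.09 in mouse 698, 0.01 in mouse 700 and 0.003 in mouse 703. The ribosomal protein sum thus fell into 2 separate clusters of 3 libraries, with none between them, so that no correlation was computed and the relation of the factors to it cannot be tested with these libraries. The median of the ribosomal protein sum lies in that gap and is the value of no library. Read one by one, mouse 678 was high in both sums, while mouse 687 was high in ribosomal protein mRNA and low in the factors, and mice 688 and 703 were low in ribosomal protein mRNA and at the middle of the range for the factors. Mouse 698 was low in both, with the lowest sum of the factors, and mouse 700 had the highest ribosomal protein sum and the second highest sum of the factors. These places in the factor sum were close. It was 532.6 rescaled TPM in mouse 698 and 535.7 in mouse 687, and 570.9 in mouse 700 and 566.6 in mouse 703. Ncl, the largest part of the factor sum, was at 131.8 in mouse 698 and 155.0 in mouse 687, so the lowest place of mouse 698 rests on Ncl. The factors amounted to 1.06 TPM per 100 TPM of ribosomal protein mRNA in mouse 678, 0.95 in mouse 687, 2.16 in mouse 688, 2.03 in mouse 698, 0.98 in mouse 700 and 2.16 in mouse 703. That proportion differed by 2.27 times between libraries. Since the sum of the factors varied little, this follows largely from dividing by the ribosomal protein sum, which differed by 2.36 times in TPM.

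**Figure D2:**
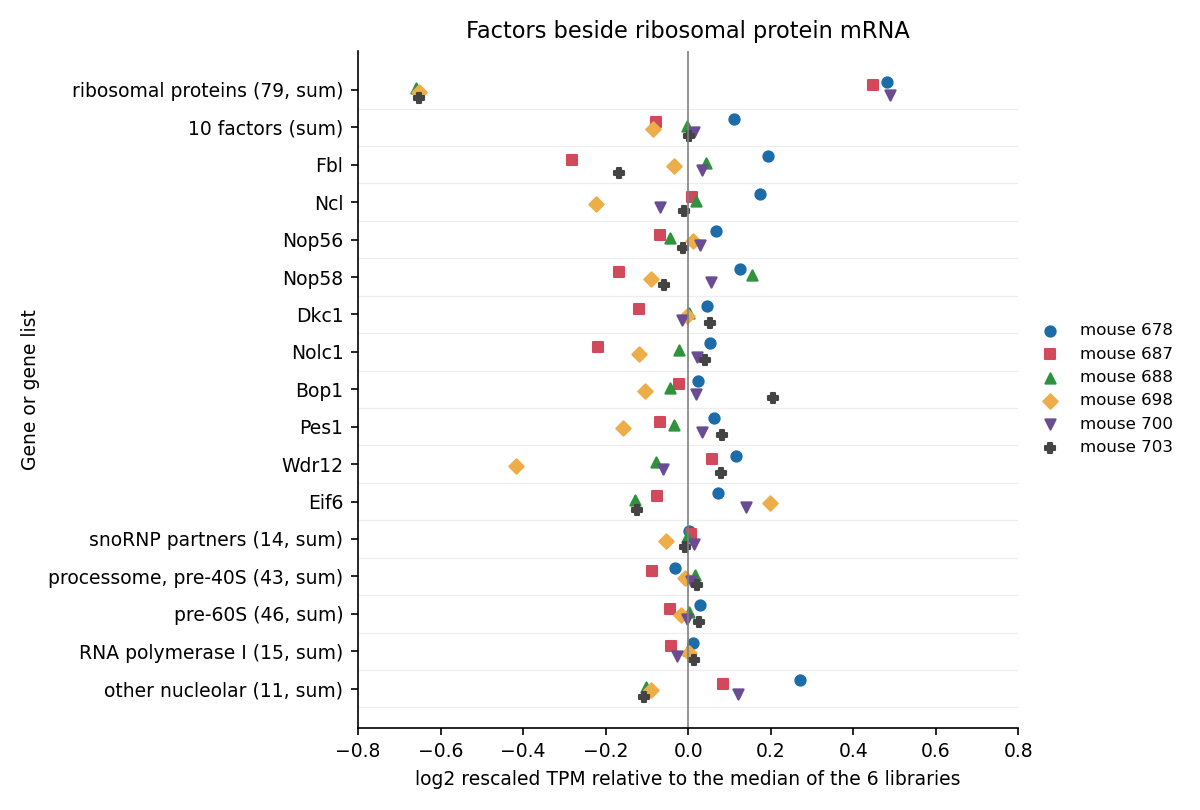
Level in each library relative to the median of the 6 libraries (x axis, log2 of rescaled TPM), with 1 symbol per mouse, for the summed ribosomal proteins, the summed factors, each factor and 5 summed lists of other ribosome biogenesis genes (y axis). The ribosomal protein sum spans 1.15 with an empty gap around 0, whereas the sum of the factors spans 0.20 and single factors span 0.14 (Nop56) to 0.53 (Wdr12).

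The spread of each gene was then placed among all detected genes. For this, expected counts were scaled by TMM to CPM, a count relative to library size, each gene was given the SD of its 6 values of log2(CPM + 1), and the running median SD of genes with a like mean was subtracted. The top 5% of this ranking, 751 of 15013 genes or 5.0%, were called most variable, and 0 of the 10 factors were among them. For 10 genes, a count of 0 cannot be told from that share. Fbl came highest, at the 77.4th percentile, followed by Eif6 at 72.3, Wdr12 at 70.1, Ncl at 65.0 and Nop56 at 57.3. Nolc1 (50.4), Bop1 (48.3) and Nop58 (44.6) lay near the middle of all genes, and Dkc1 (25.7) and Pes1 (9.59) in the lower part. From the lowest to the highest library, single factors spanned 0.15 (Pes1) to 0.50 (Fbl) in log2(CPM + 1), with a median of 0.29 against 0.32 over all detected genes and 1.30 over the ribosomal proteins. Of the ribosomal proteins, 78 of 79 were among the most variable.

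**Figure D3:**
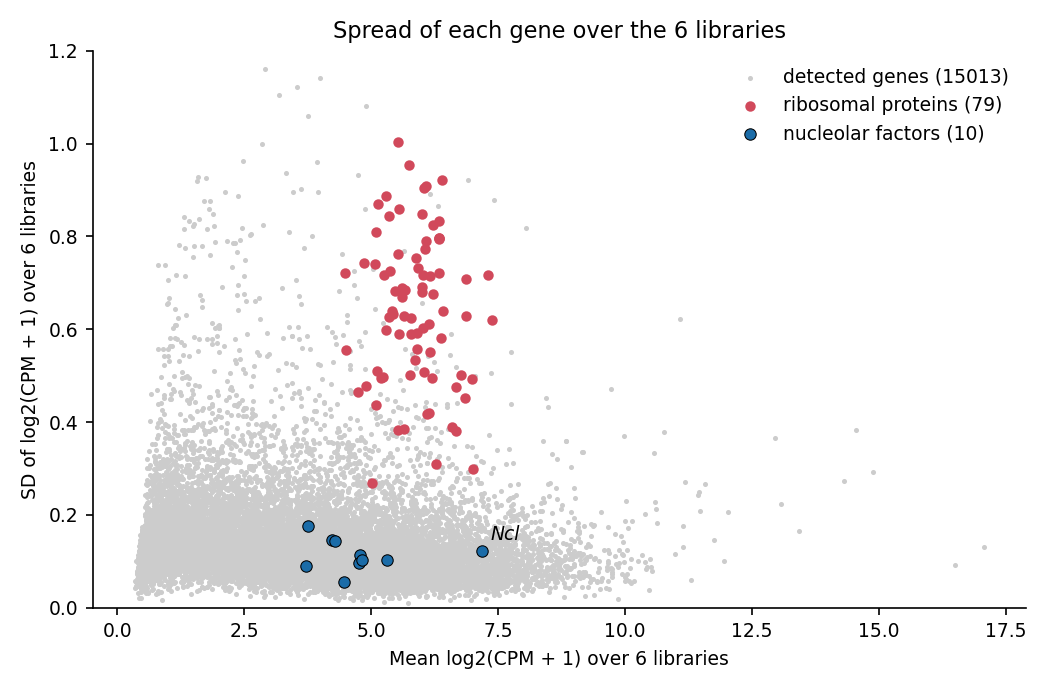
SD of log2(CPM + 1) over the 6 libraries (y axis) against its mean (x axis) for the 15013 detected genes (grey), the 79 ribosomal protein genes (red) and the 10 factors (blue), with 4 genes above the axis limit of 1.2 not drawn. The 10 factors lie within the main body of genes, between 0.06 (Pes1) and 0.18 (Fbl), and none is among the most variable genes, while nearly all ribosomal protein genes lie above it.

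Other genes of ribosome production were read from lists chosen by function. Among 14 snoRNP partners and assembly factors 0 were most variable, among 43 genes of the small-subunit processome and pre-40S particle 0, and among 15 of RNA polymerase I 0, where 5.0% of all detected genes were. Of 46 genes of pre-60S assembly and export, 2 were most variable (Nsa2 and Zfp622), and of 11 other nucleolar proteins 1 was (Nop53). Summed in rescaled TPM, the highest library exceeded the lowest by 1.05 times for snoRNP partners, 1.08 for the processome list, 1.05 for pre-60S, 1.04 for RNA polymerase I and 1.30 for the other nucleolar proteins. The sum of the 10 factors, at 1.15 times, lay above every list but the other nucleolar proteins. That list holds Nop53, with a ratio of 2.70 in rescaled TPM.

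Nop53 encodes a nucleolar protein that recruits the exosome to the pre-60S particle. It was at 44.5 TPM in mouse 678, 31.4 in mouse 687, 16.3 in mouse 688, 19.9 in mouse 698, 33.1 in mouse 700 and 18.2 in mouse 703, a ratio of 2.72. These libraries separate into the same 3 higher and 3 lower mice as the ribosomal protein sum. Those 3 higher mice were the 3 highest libraries for 0 of the 10 factors in TPM, rescaled TPM and shares of expected counts. In TMM-scaled CPM they were so for 1 factor, Ncl. The share of all detected genes with that grouping was not computed, so these counts cannot be set against a background. Nop53, Nsa2 and Zfp622 are described here because of their spread over these same libraries, whereas the factors were taken by name, so their groupings are not a like comparison. Nsa2, a pre-60S factor, was at 15.7 TPM in mouse 678, 13.0 in mouse 687, 8.40 in mouse 688, 8.20 in mouse 698, 12 in mouse 700 and 10.9 in mouse 703 (ratio 1.91), and its 3 highest libraries were again mice 678, 687 and 700. Zfp622, whose human counterpart acts late in pre-60S maturation, was at 13.2 TPM in mouse 678, 11.01 in mouse 687, 8.41 in mouse 688, 7.79 in mouse 698, 8.72 in mouse 700 and 8.59 in mouse 703 (ratio 1.69). The 3 highest libraries of Zfp622 were also mice 678, 687 and 700, with mouse 700 close to mouse 703. Leaving out mouse 678 removed both Nsa2 and Zfp622 from the most variable genes.

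Of the rest of these lists, the genes with the highest median level were Snu13, a protein of box C/D snoRNPs (35.9 TPM, ratio 1.18), Rrp7a of the processome list (38.5 TPM, ratio 1.25), Rrp1 of the pre-60S list (99.8 TPM, ratio 1.32), Ubtf, the transcription factor of ribosomal RNA genes (28.03 TPM, ratio 1.23), and Npm1, which encodes nucleophosmin (47.2 TPM, ratio 1.31). The genes with the widest ratio were Znhit6 (1.70), Wdr43 (1.95), Rpf2 (1.997) and Polr1e (2.07), at medians of 1.75 to 5.71 TPM. None of these 4 was among the most variable genes. The 3 detected protein-coding genes whose pattern over the 6 libraries came nearest to that of the summed factors were Lyar, Mmgt2 and Osbpl6, with root mean square differences of 0.020, 0.021 and 0.022 in median-centred log2(CPM + 1).

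Several factors were listed partly under isoforms not annotated as protein coding, which total RNA libraries also capture. Such isoforms held a median of 74.3% of Ncl TPM (range 69.5% to 78.4%), 46.9% of Dkc1 (42.97% to 50.4%), 28.8% of Nop58 (22.0% to 43.1%), 15.7% of Nop56, 12.8% of Pes1, 9.19% of Bop1, 6.67% of Nolc1, 4.45% of Fbl, 1.35% of Wdr12 and 0.69% of Eif6. In expected counts, which are not divided by isoform length, the shares fell to 56.1% for Ncl, 15.6% for Dkc1 and 3.04% for Nop58. Nop58-205, a nonsense-mediated decay isoform of 373 bases, held a median of 3.34 TPM but 26.9 counts, whereas Nop58-215, a protein-coding isoform of 9507 bases, held 1.81 TPM and 686 counts.

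**Figure D4:**
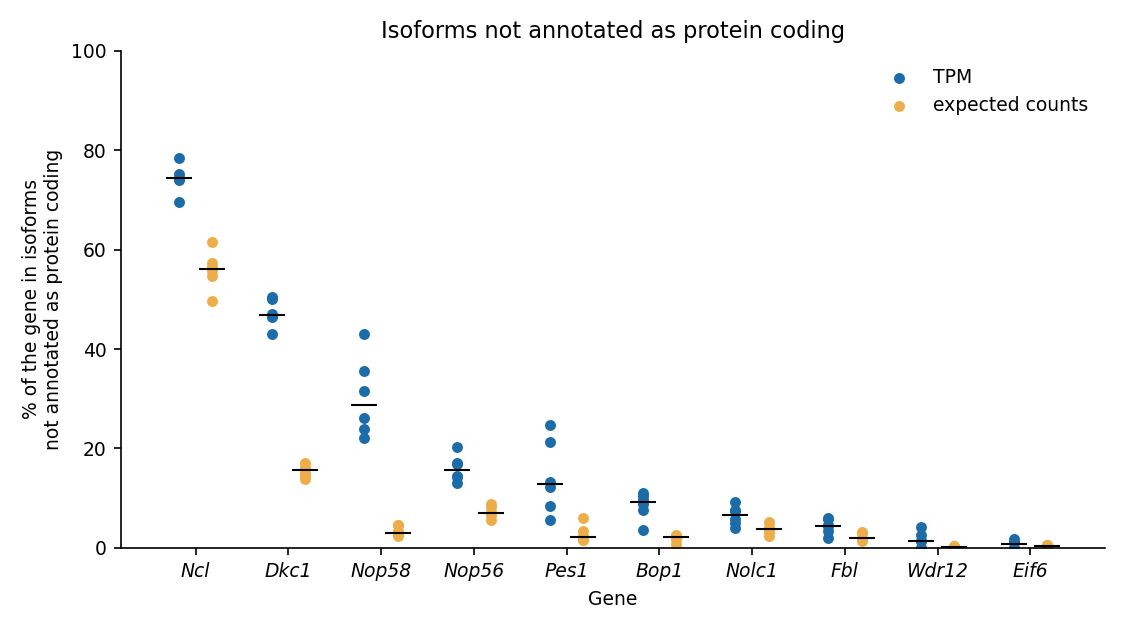
Percent of each factor in isoforms not annotated as protein coding (y axis), by TPM (blue) and by expected counts (yellow), with 1 point per library and a line at the median, and genes ordered by the TPM share (x axis). Ncl is the only factor with a median above 50% on both measures, and the TPM share exceeds the count share in every gene.

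The leading Ncl isoform, Ncl-202, was at 34.1 TPM in mouse 678, 26.7 in mouse 687, 27.0 in mouse 688, 21.4 in mouse 698, 23.7 in mouse 700 and 31.8 in mouse 703. The coding isoform Ncl-201 was at 7.68 TPM in mouse 678, 7.65 in mouse 687, 7.46 in mouse 688, 7.91 in mouse 698, 7.05 in mouse 700 and 8.51 in mouse 703. Most of the difference in Ncl between libraries was thus listed under Ncl-202. Relative to Ncl-201, Ncl-202 keeps introns 9 (492 bases) and 10 (190 bases) of 13 and ends further upstream, at position 86350495. Only 682 of its 3072 bases (22.2%) lie outside the exons of Ncl-201, while 5812 of the 8202 bases of Ncl-201 (70.9%) lie outside Ncl-202, so that the division of reads between them rests on these unshared stretches and on the annotated ends. The part of the annotated ends in this division was not tested.

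With protein-coding isoforms alone, the order of the factors changed. Ncl moved from the first place to the sixth, at a median of 9.82 TPM (range 8.69 to 10.9), and Nop56 led at 14.6 TPM, with Dkc1 last at 4.16. The ratio of highest to lowest library was 1.28 for the sum of the 10 factors, 1.26 for Ncl, 1.57 for Nop58 and 1.53 for Pes1. The levels of the other factors kept ratios within the counting intervals of those over all isoforms.

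Mammalian snoRNAs are mostly cut from the introns of host genes, and some of the factors are such hosts. Ncl, Nop56, Nop58 and Dkc1, 4 of the 10, contain a snoRNA gene on the same strand, against 1.68% of detected protein-coding genes (229 of 13625) and 30 of the 79 ribosomal protein genes. The 13 snoRNA genes lie in introns of the leading coding isoforms: introns 5, 11 and 12 of Ncl (Snord82, Gm24148 and Snora75), introns 3, 5, 8, 9 and 10 of Nop56 (among them Snord110 and Snord57), introns 2, 3, 8 and 9 of Nop58 (among them Snord70 and Snord11) and intron 8 of Dkc1 (Gm25520). Over all 6 libraries, Snora75 and Snord57 had 1 expected count each and the other 11 had 0, at lengths of 68 to 133 bases. The levels of these snoRNAs cannot be read from the libraries, whose preparation is not a small RNA method.

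Promoter windows of 300 bases from RefSeq (GRCm38.p6), from 250 bases before to 50 after an annotated start, were given for 7 of the factors. The E-box CACGTG, a sequence bound by Myc and related factors and identical on both strands, occurred in 1 of their 9 windows, that of Pes1. It occurred in 7.15% of all 32851 windows. In Pes1 it begins at base 253 of the window and is the cacgtg visible from base 3 of the Pes1-201 start shown above. Other motifs were also searched on either strand. Of the 9 windows, CCACGTG occurred in 0 (3.88% of all windows), TATAAA in 2 (13.62%), CCAAT in 2 (37.41%) and TCTCGCGA in 1 (1.0%).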

How the data were processed

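The study's methods and the submitters' notes name cutadapt for trimming, STAR for alignment to mm10 and RSEM for quantification. Their versions and strand settings are not stated there. The authors deposited expected counts per transcript (estimated counts, not normalized) and TPM, scaled by them over the 142351 transcripts listed. Of the value columns, 12 were used and 18 were not. The 12 labelled samples (6 per genotype, as 2 parts for each of 3 mice) could not be tied to the 6 mouse numbers. Whether the values of a mouse pool both parts or hold a single part cannot be read from the labels, and each such set of values is called a library here. The tissue of each file is inferred from the labels, as all samples used here are cortex. No genotype was taken from the values, and the level of the targeted gene was not used as a check.

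Transcripts were matched to GENCODE M21 without version (99.36% matched, 910 did not) and their values were added up for each gene, with gene counts then rounded. Depth was 34689262 to 44463362 expected counts per library, and no 2 libraries agreed within sampling noise (chi-square per degree of freedom 14.8 to 67.4 over 15 pairs). All markers of neurons, astrocytes, microglia and endothelium, and 5 of oligodendrocytes, had a median of at least 1 TPM, as did 1 of 5 of choroid plexus and ependyma, which summed to 2.03 to 3.87 TPM. The oligodendrocyte markers summed to 316 to 513 TPM, and 1 further marker is not reported here. Counts were scaled by TMM (edgeR 4.0.16, R 4.3.3) with a pseudocount of 1, and the ranking was tested on simulated data. The alternatives tried were size factors from DESeq2 1.42.0, no filter on low counts, other pseudocounts and units, other motif definitions and each library left out. Protein-coding isoforms alone were tried after the data were seen. Ratio intervals are exact binomial (95%) and cover counting error only. Values were called separate clusters where 1 gap in the ordered log2 values was wider than the spread of the values above it and of those below it. Genes named from the other lists were the one with the highest median TPM, the one with the widest ratio and any most variable gene. The factors and lists were chosen with earlier results of these data known.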

Additional observations from a re-analysis of the deposited data

Results flagged for a closer look

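Among 51 sets of 6 values (10 factors, their sum and 6 gene lists in 3 units), 2 held a library whose gap to the nearest other as a share of the whole range (Dixon's ratio), exceeded the 95% limit for 6 values, which chance exceeds in about 1 of 20 sets. Bop1 was at 16.15 TPM in mouse 703 and between 11.18 and 12.88 TPM in the other 5 libraries, with a Dixon ratio of 0.658, and in rescaled TPM, the ratio was 0.616 and under the limit. The summed snoRNP partners were at 531.9 rescaled TPM in mouse 698 and between 549.2 and 557.5 in the other 5 libraries.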

How the results depend on the processing

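The count of factors among the most variable genes was 0 with DESeq2 size factors, without a filter, with a pseudocount of 0.25, in log2(TPM + 1) and with each library left out in turn. The count for ribosomal proteins was 78 with DESeq2 size factors, 79 without a filter, 76 with a pseudocount of 0.25 and 72 in log2(TPM + 1). It stayed between 76 and 78 with a library left out. The ratio of highest to lowest library for the sum of the factors was 1.26 in TPM, 1.19 as a share of expected counts, 1.15 in rescaled TPM, 1.18 in TMM-scaled CPM, and 1.23 to 1.26 with a library left out. For the ribosomal protein sum it was 2.36, 2.47, 2.22, 2.34, and 2.17 to 2.36. The factors per 100 of ribosomal protein mRNA varied by 2.27 times in TPM and by 2.19 times in expected counts. The count of factors with a TOP start was 1 with any protein-coding isoform, in place of 0. For single factors, 75 alternative ratios stayed within the counting interval of the main one and 25 left it. Part of the 75 was fixed in advance, since leaving out a library that is neither the highest nor the lowest cannot change the ratio. Of the pre-60S genes, 2 were most variable, and 0 were with a pseudocount of 0.25 or without mouse 678, and 1 was in log2(TPM + 1) and without mouse 687 or 698. No paired analysis was possible because mouse numbers are not tied to the replicate numbers of the labels.

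With 1 set of values per mouse and no genotype, the spread between mice, genotypes and libraries cannot be told apart. Fbl, Nop56, Pes1 and Wdr12 share at least 5% of their 51-base stretches with another gene, in 9 of 10 cases a pseudogene, at 0.71 TPM or less, and Fbl, Ncl, Dkc1 and Eif6 share fewer with other genes, some at higher levels. Exons of Nop56, Dkc1, Bop1, Pes1, Wdr12 and Eif6 overlap a gene on the other strand by 5 to 138 bases, and whether counting used the strand is not stated. The ranking compares genes within these libraries alone. Depth limits isoforms and snoRNAs with few counts.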
